A study of Homo sapiens with 6 samples.

Results

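The 10 genes described here are long non-coding RNA (lncRNA) genes that carry small nucleolar RNAs (snoRNAs) in their introns: GAS5, SNHG1, SNHG3, SNHG5, SNHG6, SNHG7, SNHG8, SNHG12, SNHG15 and SNHG16. They were taken from a list of names, and are 10 of 59094 RefSeq genes, 18177 of them lncRNA genes, on chromosomes 1 to 22 and X. A peak was assigned to a gene when it met the gene's GRCh38 RefSeq span, or the 5 kb on either side of it, by at least 1 bp. By this rule the genes had 27 peaks, 22 of SON and 5 of HMGB2.

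The peaks come from ChIPmentation, in which antibody-bound chromatin is tagged with sequencing adapters on the beads, of IMR90, a widely used cell line of human embryonic lung fibroblasts. SON, a core protein of nuclear speckles, was profiled in untreated cells and in cells given a treatment that the labels name ICM, without expanding it, for 3 or 6 days. HMGB2, a DNA-binding high mobility group protein, was profiled in untreated cells. Each of these 4 groups had 1 deposited peak list, so no difference between groups could be tested, and the counts and ranks below are descriptions. The SON samples were crosslinked by formaldehyde only and the HMGB2 sample by EGS, a longer protein crosslinker, followed by formaldehyde, so target and fixation cannot be told apart. The lists held 22362 SON peaks in untreated cells, 11158 at 3 days, 5583 at 6 days, and 6013 HMGB2 peaks. Read depth is unknown.

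SnoRNAs guide the chemical modification of ribosomal RNA. Those of the box C/D class (SNORD genes) direct ribose methylation and those of the box H/ACA class (SNORA genes) direct pseudouridylation. In a host gene the introns yield the snoRNAs after splicing, and the spliced exons are, for several hosts including GAS5, removed by nonsense-mediated decay. Many hosts start transcription in a run of pyrimidines, the TOP feature they share with ribosomal protein genes. Nuclear speckles are bodies rich in splicing factors that lie next to many active genes.

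The table of gene spans bore out the label. Each of the 10 members held at least 1 snoRNA gene, 36 in all. GAS5 held 11, which were SNORD44, SNORD47, SNORD74 to SNORD81 and SNORA103. SNHG1 held 9, among them SNORD22 and SNORD25 to SNORD31. SNHG12 held 4, SNORD99 with SNORA16A, SNORA44 and SNORA61. SNHG16 held SNORD1A, SNORD1B and SNORD1C. SNHG3 held SNORA73A and SNORA73B, SNHG5 held SNORD50A and SNORD50B, and SNHG7 held SNORA17A and SNORA17B. The remaining hosts held a single one, SNORD87 in SNHG6, SNORA24 in SNHG8 and SNORA9 in SNHG15. The members are short, with spans from 1062 bp (SNHG8) to 7585 bp (SNHG16).

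Since most peaks of these genes lay at the annotated start, the sequence around the start is shown for 6 members, as 40 bases before and 40 bases from the start, read 5′ to 3′ on the gene's strand. Sequences are RefSeq's, GRCh38.p14, and capitals mark the unbroken run of C and T that contains the start base. SNHG1, SNHG5, SNHG12 and SNHG8 have such a run. SNHG3 and SNHG16, both among the members with the strongest SON peaks, start on a G and have none. In order, the stretches are chr11:62855846-62855925 (minus strand), chr6:85678694-85678773 (minus), chr1:28581834-28581913 (minus), chr4:118278722-118278801 (plus), chr1:28505903-28505982 (plus) and chr17:76557724-76557803 (plus).
SNHG1: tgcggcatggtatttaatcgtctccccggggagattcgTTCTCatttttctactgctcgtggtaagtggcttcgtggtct
SNHG5: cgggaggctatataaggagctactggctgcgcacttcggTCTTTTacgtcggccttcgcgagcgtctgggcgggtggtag
SNHG12: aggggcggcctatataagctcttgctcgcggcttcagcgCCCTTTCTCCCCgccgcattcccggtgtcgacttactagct
SNHG8: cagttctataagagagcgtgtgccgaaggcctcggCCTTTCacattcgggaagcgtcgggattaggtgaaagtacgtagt
SNHG3: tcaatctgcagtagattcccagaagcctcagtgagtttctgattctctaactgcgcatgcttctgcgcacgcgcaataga
SNHG16: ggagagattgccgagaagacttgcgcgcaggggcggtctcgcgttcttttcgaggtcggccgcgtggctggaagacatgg

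SON peaks were listed at 9 of the 10 members in untreated cells, at 8 after 3 days of ICM and at 4 after 6 days. HMGB2 peaks were listed at 4. Of all genes, 31.4%, 21.1% and 11% had a SON peak in the same order, and 11.8% had an HMGB2 peak. Among lncRNA genes the shares were 26.4%, 15.9%, 8.17% and 8.52%. The members' shares of 90%, 80%, 40% and 40% thus stood above both backgrounds in all 4 lists.

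The 4 members with a peak in every SON list were SNHG1, SNHG3, SNHG5 and SNHG12, where 10.1% of all genes had one in every SON list. SNHG1, SNHG3 and SNHG12 also had an HMGB2 peak and so were in all 4 lists, as were 5.03% of all genes. SNHG15 had SON peaks in untreated cells and at 3 days and an HMGB2 peak. GAS5, SNHG8 and SNHG16 had SON peaks in untreated cells and at 3 days alone, and SNHG7 in untreated cells alone. SNHG6 had no peak in any list.

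Peak strength is given as the authors' −log10 p, which in the SON lists is the lower of the values of 2 replicates. The 3 SON lists differ in length and unknown depth, so strength is set side by side as a percentile, the percent of a list's peaks with a lower −log10 p. A percentile does not remove the difference in length, because it depends on how many weaker peaks a list holds. At SNHG1 the rank went from 598 to 364 and 310, towards the top, while the percentile went from 97.3 to 96.7 and 94.4. In untreated cells the strongest SON peak of a member had a percentile of 98.6 at SNHG3, 97.3 at SNHG1, 96.5 at SNHG16, 94.0 at SNHG5 and 90.2 at GAS5. It was 79.7 at SNHG15, 74.5 at SNHG12, 66.7 at SNHG8 and 1.26 at SNHG7. The first 5 thus lay above the 90th percentile of that list, while SNHG7 lay near its weak end. The share of all genes with a peak above that percentile was not computed. With a member without a peak set to 0, the median percentile over all 10 members was 84.9 in untreated cells, 64.0 at 3 days, 0 at 6 days and 0 for HMGB2. The median over all genes was 0 in each list, which follows from most genes having no peak and says nothing of peak strength. By the same measure, 18 other snoRNA host lncRNA genes had medians of 78.7 in untreated cells and 57.1 at 3 days. For 45 protein-coding snoRNA hosts the medians were 89.5 and 70.7, above those of the members.

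**Figure D1:**
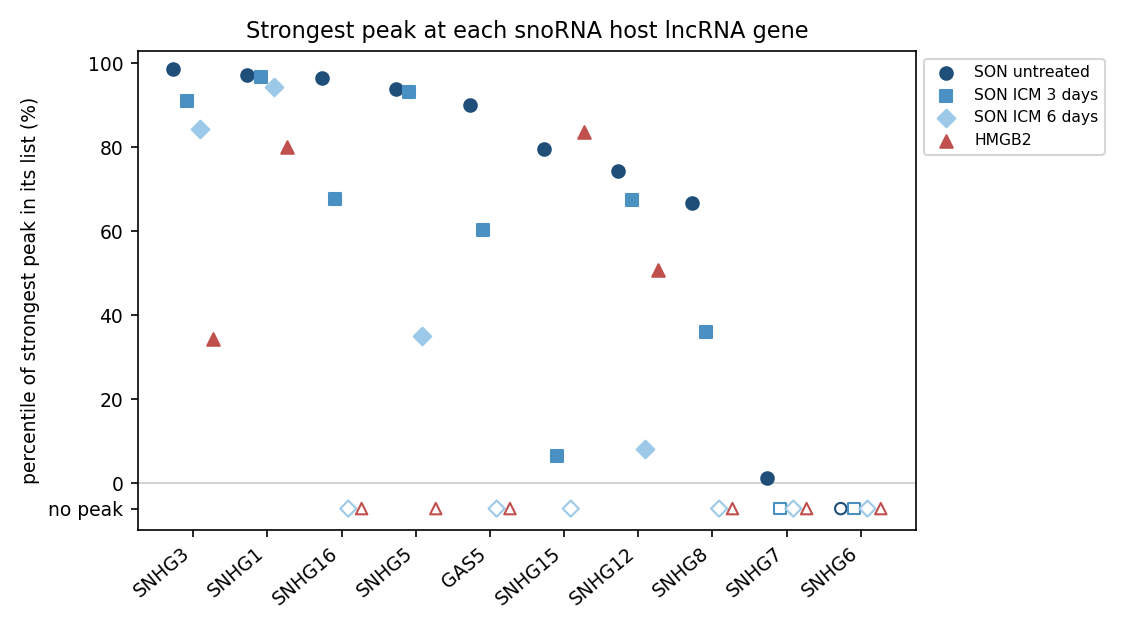
Percentile of the strongest peak of each member within its peak list (vertical axis, %) for the 10 members (horizontal axis, ordered by the untreated SON list). Filled symbols are peaks and open symbols at the bottom mark lists without a peak; SNHG1 stays above 94 in all 3 SON lists, SNHG12 reaches 8.29 at 6 days, and SNHG6 has open symbols only.

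SNHG1, the host of the SNORD25 to SNORD31 series, had high-ranking SON peaks in every SON list. Its untreated peak lay on chromosome 11 from 62855798 to 62856406, with a −log10 p of 45.8 in both replicates, rank 598 and a global IDR, the rate of irreproducible calls estimated from the 2 replicates, of 0.00119. At 3 days it had a −log10 p of 47.2 in replicate 1 and 143.6 in replicate 2, rank 364 and a percentile of 96.7. At 6 days the replicates had 19.1 and 26.1, rank 310 and a percentile of 94.4. Within each replicate taken alone, the percentiles were 97.2 and 97.1 in untreated cells, 96.7 and 97.3 at 3 days, and 91.9 and 94.3 at 6 days. The 6-day values thus lay below the 3-day range. The untreated percentiles come from the same −log10 p in both replicates and so give no replicate spread. The 3 intervals overlapped, with 598 bp shared between untreated cells and 3 days and 557 bp between untreated cells and 6 days. The start of SLC3A2, the heavy chain of amino acid transporters, lies 224 bp away on the opposite strand and inside all of these peaks, so the peaks cannot be assigned to either gene.

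SNHG3, the host of the SNORA73 pair, had the strongest untreated SON peak of the members, on chromosome 1 from 28505719 to 28506387. Its −log10 p was 61.9 in both replicates and its rank 310. At 3 days the replicates had 24.4 and 63.7, with a percentile of 91.0, and at 6 days 16.9 and 12.9, with a percentile of 84.5. The global IDR at 6 days was 0.0425. Ranked within each replicate, its percentiles were 98.5 and 98.6 in untreated cells. They were 90.8 and 92.3 at 3 days, and 88.9 and 75.0 at 6 days, and these later ranges did not overlap. The untreated percentiles were higher, but they come from the same −log10 p in both replicates and so give no replicate spread. RCC1, the guanine exchange factor of Ran, starts 100 bp further on the same strand, inside all 3 SON peaks.

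SNHG5, the host of SNORD50A and SNORD50B, had an untreated SON peak on chromosome 6 from 85678624 to 85679325, whose −log10 p was 32.3 in both replicates and whose rank was 1340. At 3 days the replicates had 28.9 and 46.2, with rank 768 and a percentile of 93.1. At 6 days they had 9.37 and 7.66, with a percentile of 35.0, and the global IDR was 0.63. Ranked within each replicate, the percentiles were 93.8 and 93.3 without treatment, 93.0 and 89.4 at 3 days, and 45.6 and 23.6 at 6 days. The untreated and 3-day values lay within a few points of each other, and the 6-day values stood far below. The untreated percentiles again come from 1 −log10 p shared by both replicates, so they give no replicate spread. No other annotated start lay within 34 kb of that of SNHG5, the nearest being SYNCRIP at 34863 bp.

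SNHG12, the host with 3 SNORA genes and SNORD99, was in all 4 lists at lower ranks. Its untreated SON peak, on chromosome 1 from 28581748 to 28582161, had a −log10 p of 15.5 in both replicates. The value was 11.5 in both replicates at 3 days, with a percentile of 67.6, and 6.04 and 7.62 at 6 days, with a percentile of 8.29. Its 6-day peak, like that of SNHG5, had a global IDR of 0.63. This is the list's largest value, shared by 39.0% of its lines.

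Of the 5 members with an untreated SON peak and none at 6 days, SNHG16 and GAS5 had strong untreated peaks. SNHG16, the host of the SNORD1 genes, had a −log10 p of 40.9 in both replicates, on chromosome 17 from 76557431 to 76557945, and 11.5 and 16.4 in the 3-day replicates, with a percentile of 67.6. GAS5, named for its accumulation in growth-arrested cells, had 25.6 in both untreated replicates, on chromosome 1 from 173867953 to 173868352, and 10.3 in both 3-day replicates, with a percentile of 60.3. Over the whole untreated list, 78.4% of peaks above the 90th percentile overlapped a 6-day peak, so absence at this strength was the less common outcome. Of the 5 members above that percentile, SNHG1, SNHG3 and SNHG5 were found at 6 days. For GAS5 the nearest 6-day peak lay 434 kb from the gene and for SNHG16 123 kb. The GAS5 peaks also cover an end of the overlapping gene ZBTB37, as described below, and cannot be assigned to either gene.

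SNHG15, the host of SNORA9, had a −log10 p of 17.7 in both untreated replicates, on chromosome 7 from 44986458 to 44986913. At 3 days it had 5.74 and 8.22, with a percentile of 6.43, and its global IDR of 0.447 was the largest in the list, as for 31.9% of the 3-day lines. SNHG8, the host of SNORA24, had 13.1 and 17.0 in the untreated replicates, on chromosome 4 from 118278470 to 118279013, and 7.92 and 10.4 at 3 days, with a percentile of 36.1. Ranked within each replicate, SNHG15 had percentiles of 78.8 and 77.0 in untreated cells and 4.88 and 27.2 at 3 days, and SNHG8 had 65.0 and 75.4 and then 31.8 and 46.0. At SNHG8 the untreated and 3-day ranges did not overlap. SNHG15 had the same −log10 p in both untreated replicates, so its untreated percentiles differ only through the other peaks ranked with it. They give no replicate spread to set against its lower 3-day percentiles. SNHG7, the host of the SNORA17 pair, had a peak in untreated cells on chromosome 9 from 136728117 to 136728521, with 4.77 and 6.10 in the replicates, rank 22077 of 22362 and a global IDR of 0.431, the upper limit reached by 32.6% of the untreated lines. The protein-coding gene LOC124900276 has its annotated start at the same base and strand as SNHG7, inside this peak.

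**Figure D2:**
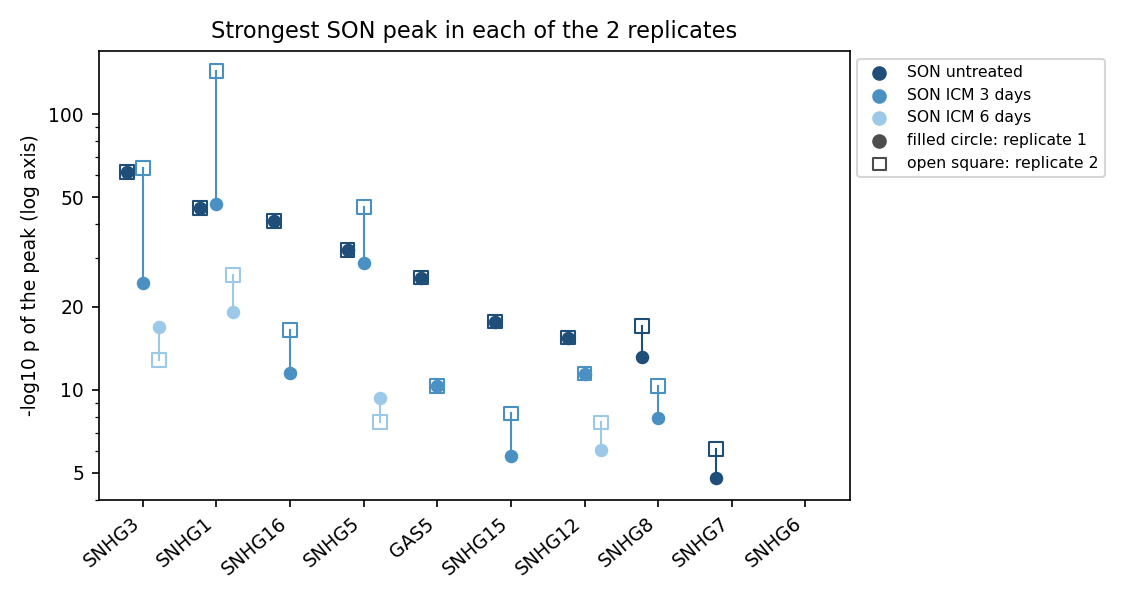
The −log10 p of the strongest SON peak of each member (vertical log axis) in replicate 1 (filled circles) and replicate 2 (open squares), joined by a line, for untreated cells and 3 and 6 days of ICM. At SNHG1 the 3-day replicates span 47.2 to 143.6, while in untreated cells the symbols of SNHG1, SNHG3, SNHG5, SNHG12, SNHG15, SNHG16 and GAS5 coincide.

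The replicate columns do not give a full measure of spread. Of the 10 untreated SON peaks at members, 8 had 2 identical replicate values, which 55.9% of all peaks in that list had. At 3 days this held for 2 of 8 member peaks, against 29.0% of the list, and at 6 days for 0 of 4, against 9.49%. The members were thus not set apart from their lists in this respect at 3 and 6 days. Whether the 2 replicates share reads is not stated. Where the values differed at 3 days, replicate 1 was the lower at all 6 peaks, and the share over the whole list was not computed. The order of the untreated strengths of SNHG3, SNHG1, SNHG16, SNHG5, GAS5, SNHG15 and SNHG12 therefore has no replicate spread to be read against, whereas at 3 days SNHG1 exceeded SNHG3 in both replicates, and SNHG3 and SNHG5 changed places between them.

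A filter on the global IDR changed the counts. At a global IDR of at most 0.05, 8 members had an untreated SON peak, 6 a 3-day peak and 2, SNHG1 and SNHG3, a 6-day peak. All genes stood at 23.4%, 11.7% and 2.4% under the same filter. SNHG7 was the member left out in untreated cells, and SNHG8 and SNHG15 at 3 days. The 3-day peak of GAS5 lay just inside the limit, with 0.04996.

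Among the genes with an untreated SON peak, 65.2% also had a 3-day peak and 34.1% a 6-day peak. For the 9 members with an untreated peak the numbers were 8 and 4. All later peaks of a member overlapped its untreated peak, and no member had a SON peak first listed at a later time.

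HMGB2 peaks were found at or next to the starts of SNHG1, SNHG3 and SNHG12 and at an end of the SNHG15 span. The authors' fold enrichment of HMGB2 peaks over background had a median of 4.89 in the list. At SNHG15 the fold was 6.11, with a −log10 p of 14.6 and a percentile of 83.7. At SNHG1 it was 5.21, with 13.7 and a percentile of 80.2, at SNHG12 4.48, with 9.64 and 50.7, and at SNHG3 3.64, with 8.42 and 34.3. The order of the members thus differed from that of SON, where SNHG3 came first and SNHG15 sixth. Each of these 4 HMGB2 peaks lay wholly inside the untreated SON peak of its gene. A further HMGB2 peak of the SNHG3 window, on chromosome 1 from 28515241 to 28515418 with a fold of 5.21, lay beyond the end of SNHG3 and within RCC1. SNHG5, SNHG16 and GAS5, with untreated SON percentiles of at least 90.2, had no HMGB2 peak, and for SNHG16 the nearest lay 9.75 kb away.

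Most peaks sat at the annotated starts of the genes, and none over the snoRNAs. None of the 27 peaks overlapped a snoRNA gene, and 26 met the span of the member. A start was annotated in the promoter table for 8 members. At these, 17 of 20 SON peaks covered the start, and the summits of all 17 lay upstream of it, by 28 to 140 bp. The 3 others were both GAS5 peaks and a second, weak SNHG16 peak inside that gene, on chromosome 17 from 76562780 to 76563025, with a −log10 p of 6.60. The 17 peaks are not independent, since the same start is counted again in each SON list that holds a peak there. Shares over all peaks were not computed for covering a start, a summit upstream of it or overlap with a snoRNA gene. HMGB2 summits lay 105 bp upstream of the start at SNHG1, 88 bp upstream at SNHG12 and 5 bp downstream at SNHG3. SNHG12 is on the minus strand, and its listed start, 28581873, is not the end of its span, 28582983. Its SON summits lay 979 to 1014 bp inside that end. The positions given for SNHG12 hold for this listed start only, as other starts were not checked. At SNHG15, whose start was not in the table, the SON and HMGB2 summits of untreated cells lay 2 and 6 bp from the nearer end of the span.

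Within 1 kb of the start, SON peaks were listed for 8 of the 8 members in untreated cells, for 7 at 3 days and for 4 at 6 days, and HMGB2 peaks for 3. Of all annotated starts, 30.1%, 20.8%, 8.62% and 11.2% had such a peak. The GAS5 peaks were the ones set apart, with summits 942 and 948 bp inside the gene from the 1 start that the table gives for GAS5. Other starts of GAS5 were not checked, so this distance, and the start sequence of GAS5 described below, hold for that table entry only. Both GAS5 peaks also covered the low end, at 173868082, of the span of ZBTB37, a zinc finger gene that overlaps GAS5. ZBTB37 lies on the plus strand, so this is the 5′ end of its span. The peaks therefore cannot be assigned to either gene. The start that the promoter table gives for ZBTB37 lay 28 bp beyond the untreated peak.

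**Figure D3:**
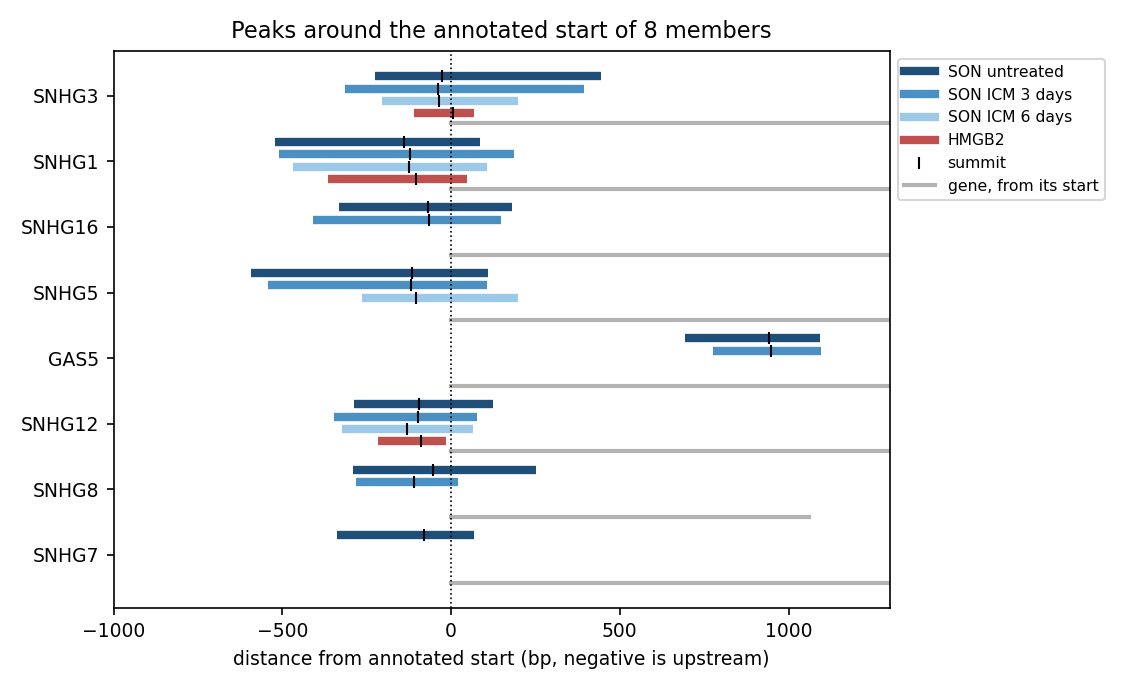
Peaks drawn to scale around the annotated start of 8 members (horizontal axis, bp from the start in the direction of transcription; one row per gene), with black ticks at the summits and a grey line for the gene. The SON bars of 7 members straddle the start with summits up to 140 bp upstream, the GAS5 summits lie 942 and 948 bp inside the gene from the 1 start listed for it (other starts were not checked), and 1 SNHG16 and 1 HMGB2 peak near SNHG3 fall outside the range drawn.

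Some of the start sequences share features that the choice of members did not use. The start base lay in a run of at least 5 C or T in 5 of the 8 members, SNHG1, SNHG5, SNHG7, SNHG8 and SNHG12, against 9.61% of 34961 promoters. The run was 12 bases long at SNHG12, 6 at SNHG5, SNHG7 and SNHG8, and 5 at SNHG1. The letters TATAA, looked for after the sequences had been read, stood 40 to 16 bases before the start on the sense strand in SNHG5, SNHG7, SNHG8 and SNHG12, against 3.91% of promoters. Because these letters were picked from the same sequences, this contrast is no independent evidence. Over the whole 300 bases and both strands, TATAA matched in 5 of the 8 members and in 20.4% of promoters. Both features can be seen in the lines printed for SNHG5, SNHG12 and SNHG8. SNHG7, with the weakest SON peak, had both features, and SNHG3, with the strongest, had neither.

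Other motifs were searched on both strands over the 300 bases from 250 before to 50 after the start. The letters GCGCANGCG, taken for NRF1, matched in SNHG1, SNHG3 and SNHG8 and in 7.54% of promoters. CACGTG, the E-box bound by MYC, matched in SNHG7 and in 7.27% of promoters. CCACNAGG, a short core of the CTCF motif, matched in SNHG16 and in 4.93%. TATAAA matched in SNHG7 and, on the antisense strand, in SNHG1, and in 11.5% of promoters. TATAAA contains TATAA, so these matches overlap. CCGGAAG (ETS factors) and AAGATGGCG (YY1) matched in no member, and in 10.3% and 1.76% of promoters. A match is no evidence of binding, and a missing match says only that these letters are not in this window. The GC content of the 300 bases ranged from 37.7% in GAS5, at its 1 listed start, to 75.3% in SNHG7, around the median of 58.7% over all promoters.

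The same window was read at related genes. Of 18 other snoRNA host lncRNA genes, 17 had an untreated SON peak, 15 a 3-day peak and 7 a 6-day peak, and 7 had an HMGB2 peak. SNHG19, SNHG29 and SNHG9 had the highest untreated percentiles, 99.1, 99.1 and 95.8, and with SNHG25 they were in all 4 lists. SNHG18 had no peak in any list. Of 45 protein-coding snoRNA hosts, 42, 35 and 17 had a SON peak in the order of the lists and 18 an HMGB2 peak. EEF1B2, a translation elongation factor subunit, and the ribosomal protein genes RPS12 and RPL13A led these, with untreated percentiles of 99.9, 99.5 and 98.9. RCC1 is among the 45 and shares the SNHG3 peaks, RPS2 is among them and had the same values as SNHG9 in every list, and DKC1 and NOP56 are also among the snoRNA particle proteins below.

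Every lncRNA gene whose span holds a snoRNA gene, on either strand, gives a wider set of 145, the members included. A SON peak was listed for 53.1% of them without treatment, for 42.1% at 3 days and for 24.1% at 6 days, and an HMGB2 peak for 22.1%. The named hosts thus stood above this wider set. Protein-coding genes as a whole stood at 57.1%, 41.0%, 21.5% and 23.3%.

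**Figure D4:**
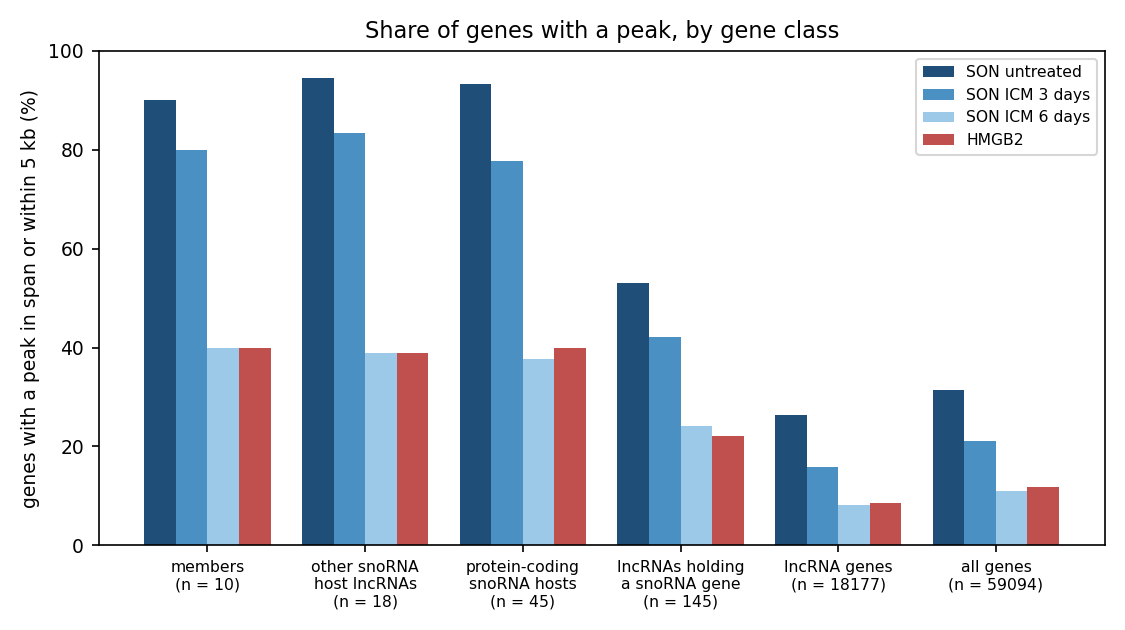
Percent of genes with a peak in their span or within 5 kb (vertical axis) for 6 gene classes, the number of genes in each given under its name, with 1 bar per peak list. The members, the 18 other host lncRNAs and the 45 protein-coding hosts have similar bars, between 37.8% and 94.4%, and all genes have 11% to 31.4%.

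Proteins that bind snoRNAs, build their particles or degrade host transcripts were read in the same way. The 8 core proteins of snoRNA particles all had an untreated SON peak, 7 a 3-day peak and 2 a 6-day peak, and 2 had an HMGB2 peak. NHP2, the pseudouridine synthase DKC1 and NOP58 had the highest untreated percentiles, 93.6, 88.6 and 86.4. Of 10 assembly factors, 9 had an untreated SON peak, 4 a 3-day peak and 3 a 6-day peak, and 3 an HMGB2 peak. The helicase genes RUVBL1 and RUVBL2 and the cofactor PIH1D1 led these with 90.5, 88.4 and 89.6, and PIH1D1 was in all 4 lists. All 10 nonsense-mediated decay factors had an untreated SON peak, 9 a 3-day peak and 6 a 6-day peak, and 4, UPF2, SMG1, SMG5 and SMG6, were in all 4 lists. SMG9, UPF2 and SMG1 had the highest untreated percentiles, 97.7, 97.3 and 94.0. Several of these genes are far longer than the members and so present a wider target.

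The genes whose 4 percentiles came closest to the members' medians, by the mean absolute difference over the 4 lists and among 38126 lncRNA and protein-coding genes, were LOC105374065, MGAT4C, LOC105369468, ZBTB45 and UBAP1. Their mean differences ran from 0.182 to 0.473 percentile points, with untreated percentiles from 84.3 to 85.4 and no peak at 6 days or of HMGB2. The medians matched here are 0 for those 2 lists, although 4 members had a 6-day peak and 4 an HMGB2 peak. These genes span 25382 to 883334 bp, against at most 7585 bp for the members, and where their peaks lie within them was not examined.

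SNHG6 was the member without a peak. The untreated SON peak nearest to its span lay 50.8 kb away, the nearest 3-day peak 137 kb and the nearest 6-day peak 254 kb, and the nearest HMGB2 peak 254 kb. Without read counts, absence from a list cannot be told from signal below the authors' threshold.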

How the data were processed

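Peak lists of 4 of the 6 samples were used, grouped by title and treatment label. The input of HMGB2 and its DSG sample were not analysed here. The submitters' processing notes name hg38, Bowtie2 and MACS2 without parameters. The SON lists have the 20-column layout of IDR on 2 replicates, and how the replicates were made is not stated. Their deposited values are −log10 p per peak and replicate, −log10 of the global IDR, and an IDR score; the score was not used. In the HMGB2 list the authors deposited fold enrichment, a linear ratio, with −log10 p and −log10 q, and its peak names state a q cutoff of 0.03. The authors' values describe and rank peaks within their own list.

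Ranks and percentiles are over all lines of a list, ties taking the better rank. Gene spans, starts and sequences came from RefSeq tables of GRCh38.p14, the same build as hg38, and all 10 symbols matched. Starts were found for 8 members, and SNHG6 and SNHG15 are not in the promoter table. The overlap count was tested on 200 planted peaks and answered 200 rightly. All members were named; of the other lists, the 3 genes with the highest untreated percentile and genes in all 4 lists could be named (for the protein-coding hosts, 13 in all 4 lists, the first 3 and RCC1 were). Members, lists and rules were chosen with earlier results of these data known. The software was Python 3.11.15 with pandas 2.3.3, numpy 2.4.6 and matplotlib 3.10.9.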

Additional observations from a re-analysis of the deposited data

How the results depend on the processing

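Of 34 alternative counts of members with a peak (window, overlap rule, list length, peak strength, IDR), 30 stayed within 1.5 times the value reported. The 4 others were stricter selections of peaks, which by construction keep fewer. List length mattered within the 30. With each SON list cut to its 5583 strongest peaks, the length of the shortest, 6 members had a peak in untreated cells. The same cut gave 6 at 3 days and 4 at 6 days, against 9, 8 and 4 with the full lists. With a global IDR of at most 0.01, 7 members remained in untreated cells, 3 at 3 days (SNHG1, SNHG3 and SNHG5) and 1, SNHG1, at 6 days. The shares of all genes at this limit, in the stronger 50% of a list or at equal list length were not computed. A loss at members therefore cannot be told from a general loss under these selections. At 6 days, 2 members had a peak in the stronger 50% of the list, and 2 under an IDR limit of 0.05. The median percentile in replicate 2 was 83.0 in untreated cells and 49.3 at 3 days. The background share moved with the class of gene: for lncRNA and ncRNA genes it was 26.4%, 15.9%, 8.15% and 8.51%, and for protein-coding genes 57.1%, 41.0%, 21.5% and 23.3%, in untreated cells, at 3 days, at 6 days and for HMGB2. Ranked by fold, the HMGB2 peaks had percentiles of 58.5 at SNHG1, 39.0 at SNHG12 and 77.2 at SNHG15, and 57.5 in the SNHG3 window, from its second peak. No paired analysis was possible because each group has 1 list. Depth limits every absence from a list, and it is unknown here.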

Other observations

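Of the lncRNA genes with a span in the members' range, 1062 to 7585 bp, an untreated SON peak was listed for 22.8%, a 3-day peak for 13.8%, a 6-day peak for 5.93% and an HMGB2 peak for 8.28%.

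RPL39, RACK1 and EIF4A2, 3 protein-coding snoRNA hosts chosen for mention after their values were seen, had no peak in any of the 4 lists, as was the case for SNHG6 and SNHG18 among the lncRNA hosts.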
